A study of Mus musculus with 20 samples.

Results

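Control non-growing oocytes of the mouse ovary were compared between postnatal day 5 (P5) and postnatal day 1 (P1), the days over which germ cell nests break down and primordial follicles form. Every gene with at least 1 TPM in at least 2 of the 4 control libraries was taken, where TPM is an expression value scaled by gene length and by the library total. This gave 15301 of the 53722 genes in the oocyte table. Of these, 11336 reached 1 TPM in all 4 libraries, 723 in both P5 libraries and in neither P1 library, 534 in both P1 libraries and in neither P5 library, and 2708 in other mixtures.

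The P5 group and the P1 group held 2 libraries each, out of 16 oocyte libraries and 20 libraries in the study. The study set knockouts of Chd4, which encodes a nucleosome remodelling ATPase of the NuRD complex, against controls. Both control groups here, called Dctrl, were Chd4 f/+ with Ddx4-Cre Tg/+, so the cells of both ages carried the Cre transgene and a single floxed allele of Chd4. Ddx4-Cre acts in germ cells, and these oocytes therefore stand for heterozygous rather than wild-type ones. The matched knockouts, DcKO, were Chd4 f/- with the same Cre at P5 and P1. The P10 controls used for description, Gctrl, were Chd4 f/f without Cre. The strains were C57BL/6, 129S1/Sv and FVB/NJ crossed together. No sort or gate was given, nor whether replicates were separate animals or pools, so the tests below rest on the spread between libraries, which may be technical.

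A mouse oocyte enters meiosis before birth, passes through synapsis and recombination, and arrests at the end of prophase, in the dictyate stage, around the time of birth. It is then enclosed by pregranulosa cells in a primordial follicle, where most oocytes stay dormant and form the ovarian reserve. Oocyte transcription factors such as FIGLA, NOBOX, LHX8 and SOHLH1 act during this step. The growing oocyte later secretes the zona pellucida, the coat that sperm bind, and stores maternal transcripts for the early embryo.

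The 4 libraries held a recovered depth of 21415329 and 21704306 reads at P5 and 17702135 and 19641023 reads at P1. Replicates correlated across genes with a Pearson r of 0.942 at P5 and 0.961 at P1. Dppa3, a maternal factor that protects DNA methylation in the zygote, was the highest transcript of every library and took 7.05% and 7.07% of all TPM at P5, against 4.22% and 3.73% at P1. The oocyte factor Figla was at 4562 and 4411 TPM at P5 and at 4786 and 4588 TPM at P1. Chd4 itself was at 14.5 and 17.9 TPM at P5 and at 24.7 and 31.2 TPM at P1, measured over the whole gene, and was not called (limma adjusted p = 0.535). It was at 8.28 and 4.94 TPM in P5 DcKO and at 4.32 and 1.9 TPM in P1 DcKO, below the controls of the same age in each library.

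Markers of other ovarian cells were low but not equal between the ages. The summed TPM of 24 granulosa cell markers was 31.9 and 12.6 at P5, against 137 and 223 at P1, and 3 of the 24 were at 0 in all 4 libraries. At P1 most of that sum was keratin. Krt8 was at 7.96 and 0.113 TPM at P5 and at 51.9 and 75.1 TPM at P1, and Krt18 was at 3.00 and 4.09 TPM at P5 and at 57.9 and 107.6 TPM at P1. Of the 24, 15 reached 1 TPM in at least 1 library, while Foxl2 and Amh stayed at or under 0.269 TPM. Inha was at 0.075 and 2.18 TPM at P5 and at 10.5 and 13.4 TPM at P1. Kitl was at 6.12 and 0.732 TPM at P5 and at 3.97 and 5.51 TPM at P1. The 12 markers of surface epithelium and mesothelium, a list that shares the keratins, summed to 47.0 and 39.9 at P5 and to 149 and 210 at P1, with 2 at 0 throughout. The 16 stromal markers summed to 19.6 and 30.3 at P5 and to 20.6 and 29.1 at P1, the 10 endothelial markers to 17 and 5.49 at P5 and to 9.47 and 12.9 at P1, and the 12 blood markers to 8.58 and 0.361 at P5 and to 1.91 and 3.03 at P1. At 0 in all 4 libraries were 6 of the blood markers, Ptprc among them, 3 of the stromal ones and 0 of the endothelial ones. The 16 muscle markers summed to 57.4 and 77.7 at P5 and to 33.2 and 27.8 at P1, nearly all of it Tnnt1, and 4 were at 0 throughout. Calls among these lists were Krt8, Inha, Upk1b and Star, each lower at P5, and Inha missed without P5 replicate 1 or either P1 replicate and Upk1b without either P5 replicate or P1 replicate 1 (limma adjusted p up to 0.227 and 0.198). Inha also missed without the TPM filter and with a pseudocount of 0.1 or 5, and Upk1b with the 8 P1 and P5 libraries alone (up to 0.0709 and 0.0568). The part of these cells in the changes below was not tested, and fewer cells of a type cannot be told apart from less RNA per cell.

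A transcription start is shown for the 2 genes with the largest change in each direction that had a promoter entry in RefSeq (GRCm38.p6). CG content and the TATA box are counted over all promoters further on. Each stretch runs 5′ to 3′ on the gene's own strand, from 250 bases before the transcription start to 50 bases after it, with the TATA box TATAAA in capitals where it occurs. The rises are shown by Elobl (chr11:88966882-88967181, minus strand) and Rln3 (chr8:84044930-84045229, minus strand), and the falls by Tex101 (chr7:24672001-24672300, minus strand) and Sval1 (chr6:41951378-41951677, plus strand).
Elobl: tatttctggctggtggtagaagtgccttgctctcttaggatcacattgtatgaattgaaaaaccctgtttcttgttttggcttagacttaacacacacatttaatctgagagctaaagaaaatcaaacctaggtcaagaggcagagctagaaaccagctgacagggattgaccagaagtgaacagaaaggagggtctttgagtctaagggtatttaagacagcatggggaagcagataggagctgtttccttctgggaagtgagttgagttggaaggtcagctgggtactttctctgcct
Rln3: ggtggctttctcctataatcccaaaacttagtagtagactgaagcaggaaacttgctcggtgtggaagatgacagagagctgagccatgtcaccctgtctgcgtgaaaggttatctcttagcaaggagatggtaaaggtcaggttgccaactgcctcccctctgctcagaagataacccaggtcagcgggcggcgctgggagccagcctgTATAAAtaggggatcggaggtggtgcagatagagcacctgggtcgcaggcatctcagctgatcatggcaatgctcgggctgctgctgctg
Tex101: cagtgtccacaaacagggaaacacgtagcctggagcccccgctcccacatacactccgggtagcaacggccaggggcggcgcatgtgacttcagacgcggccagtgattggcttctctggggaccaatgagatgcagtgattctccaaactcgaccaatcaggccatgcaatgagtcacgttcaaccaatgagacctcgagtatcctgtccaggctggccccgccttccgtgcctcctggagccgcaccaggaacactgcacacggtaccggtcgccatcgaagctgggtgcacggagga
Sval1: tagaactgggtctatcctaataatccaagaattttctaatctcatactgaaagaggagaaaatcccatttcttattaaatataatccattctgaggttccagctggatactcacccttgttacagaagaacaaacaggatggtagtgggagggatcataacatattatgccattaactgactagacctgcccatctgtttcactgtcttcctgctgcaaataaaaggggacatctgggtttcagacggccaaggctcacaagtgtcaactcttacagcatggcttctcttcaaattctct
The Elobl stretch holds 0 CG pairs at 43.7% G and C, and that of Rln3 holds 8, with a TATA box on the sense strand whose first base lies 40 bases before the start. Tex101 has 19 CG pairs at 60.3% G and C, while Sval1 has 1 at 40.7%. The Tex101 stretch lies inside the annotated gene (chr7:24668007-24676675), so it is not the outermost start of that gene.

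Across the genes tested, 962 of 20470 (4.7%) passed limma's test at an adjusted p of 0.05, with 556 higher at P5 (2.72%) and 406 lower (1.98%). Among the 15301 genes described here 957 were called (6.25%), of which 555 were higher (3.63%) and 402 lower (2.63%). Of the 11336 genes at 1 TPM or more in all 4 libraries, 358 were higher (3.16%) and 233 lower (2.06%). The called genes that were higher had a median log2 fold change of 2.19 and those that were lower a median of -1.46, against 0.0271 over all 15301, on the log2(TPM + 1) scale used throughout. At least a log2 change of 2 was reached by 319 that were higher and 109 that were lower. The P5 and P1 libraries did not overlap in any of the 957, nor in 60.5% of all 15301. At an unadjusted p of 0.05, 3141 of the 15301 passed.

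The called genes made up a large part of the transcriptome. Those that were higher at P5 held 18.3% and 18.6% of all TPM at P5, against 8.14% and 7.85% at P1. Dppa3 alone, which is among them, held 7.05% and 7.07% at P5 and 4.22% and 3.73% at P1. Those that were lower held 9.64% and 9.40% at P5, against 19% and 17.7% at P1. The direction of both shifts follows from choosing the genes by their call in these libraries. The count rested on having every library. It was 408 without P5 replicate 1, 486 without P5 replicate 2, 249 without P1 replicate 1 and 356 without P1 replicate 2. Of the 137 genes named by the rule used here, 53 passed with any 1 of the 4 libraries left out, and the text says which. Elobl, Gdf9, Noto, Ndufa12-ps, Tsga10ip and Higd1a, for which it is not said below, kept the age call in this way. With a pseudocount of 0.1 the log2 fold change of 22 of the 137 moved by over 1.5 times, and with 5 that of 33.

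**Figure D1:**
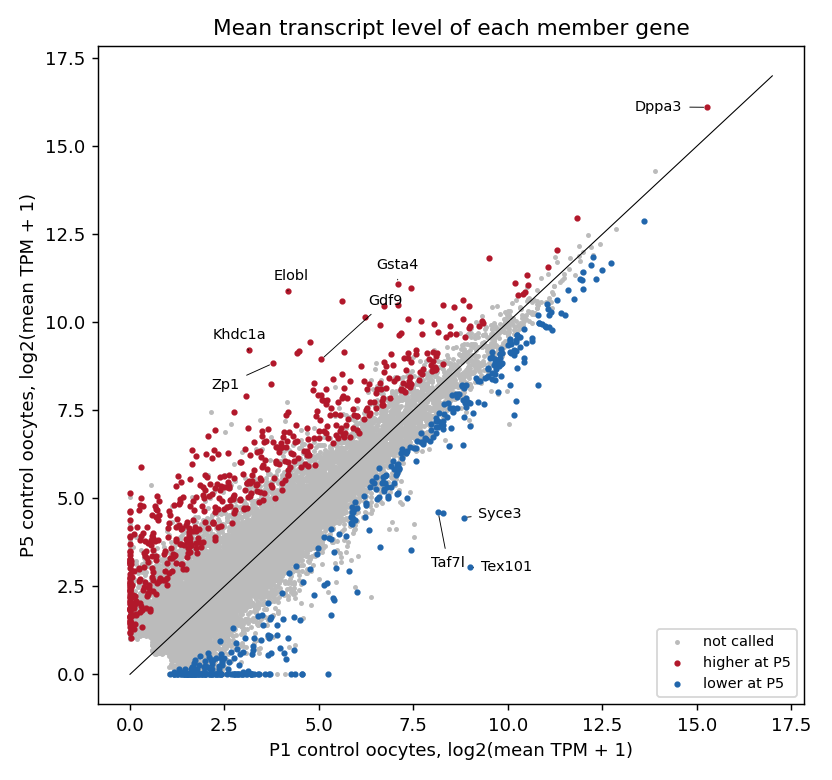
Each point is 1 of the 15301 genes, with the log2 of the mean TPM plus 1 at P5 on the vertical axis and at P1 on the horizontal axis, each mean over 2 libraries. The 555 genes called higher at P5 lie above the line of equality and the 402 called lower lie under it, with Elobl and Khdc1a far above and Tex101 and Syce3 far below.

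The 15 largest rises included 3 KH-domain genes, 2 Oas1 genes and the egg coat gene Zp1. Elobl, an elongin B-like gene (ENSMUSG00000057534, chr11:88964658-88966931, protein coding), was at 1818 and 1977 TPM at P5, against 12.4 and 21.8 TPM at P1. This was a log2 fold change of 6.76 ± 0.27 (± SE, limma adjusted p = 1.16e-07). Khdc1a, of a cluster of KH-domain genes on chromosome 1, was at 619 and 562 TPM at P5 and at 10.1 and 5.55 TPM at P1. Its neighbours Khdc1b and Khdc1c moved the same way. Khdc1b was at 613 and 507 TPM at P5 and at 21.9 and 19.16 TPM at P1, and Khdc1c was at 54.4 and 63.1 TPM at P5 and at 0.136 and 0.322 TPM at P1. Their log2 fold changes were 6.12 ± 0.34, 4.70 ± 0.17 and 5.60 ± 0.56 for Khdc1a, Khdc1b and Khdc1c (limma adjusted p of 2.16e-06, 8.80e-08 and 0.000206). These copies are near-identical in part, so the authors' counting could split reads between them. The pluripotency-linked KH-domain gene Dppa5a was at 3679 and 3553 TPM at P5 and at 726 and 710.1 TPM at P1, a log2 fold change of 2.33 ± 0.11 (limma adjusted p = 7.71e-07). All 4 KH-domain genes were thus higher, with a median log2 fold change of 5.15 beside 0.005 over all genes tested, and each kept its call with any library left out.

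Of the secreted products among the largest rises, Rln3, a relaxin family peptide hormone, was at 617 and 539 TPM at P5, against 15.1 and 27.3 TPM at P1 (log2 fold change 4.76 ± 0.57, limma adjusted p = 0.000678). Ptgds, the prostaglandin D2 synthase, was at 314 and 159.6 TPM at P5 and at 7.40 and 7.52 TPM at P1. Its P5 libraries lay apart, but both were far above P1 (log2 fold change 4.73 ± 0.42, limma adjusted p = 8.67e-05). Slc23a3, of the nucleobase and ascorbate transporter family, was at 26.8 and 27.3 TPM at P5 and at 0.0612 and 0.347 TPM at P1. Kpna7, an importin alpha of oocytes and early embryos, was at 31.3 and 22.04 TPM at P5 and at 0.0423 and 0.480 TPM at P1. The set was completed by Fam81b, Ceacam10, the carotenoid cleaving enzyme gene Bco1 and the PRAME family gene Pramef20, with log2 fold changes of 4.43, 4.32, 4.26 and 4.72. Rln3, Ptgds, Slc23a3, Fam81b and Ceacam10 passed with any library left out. Kpna7 missed without P5 replicate 1 or P1 replicate 1, Bco1 without P5 replicate 2 or P1 replicate 1, and Pramef20 without either P5 replicate or P1 replicate 1, with limma adjusted p up to 0.0769, 0.0788 and 0.0986. The size and order of the rises from near 0 depended on the pseudocount. With 5 in place of 1 the log2 fold change was 3.604 for Khdc1c, 2.62 for Slc23a3, 2.575 for Kpna7, 2.495 for Fam81b and 2.71 for Ceacam10. With 0.1 it was 6.81 for Fam81b, and that of Khdc1c, 7.54, exceeded that of Elobl, 6.84.

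**Figure D2:**
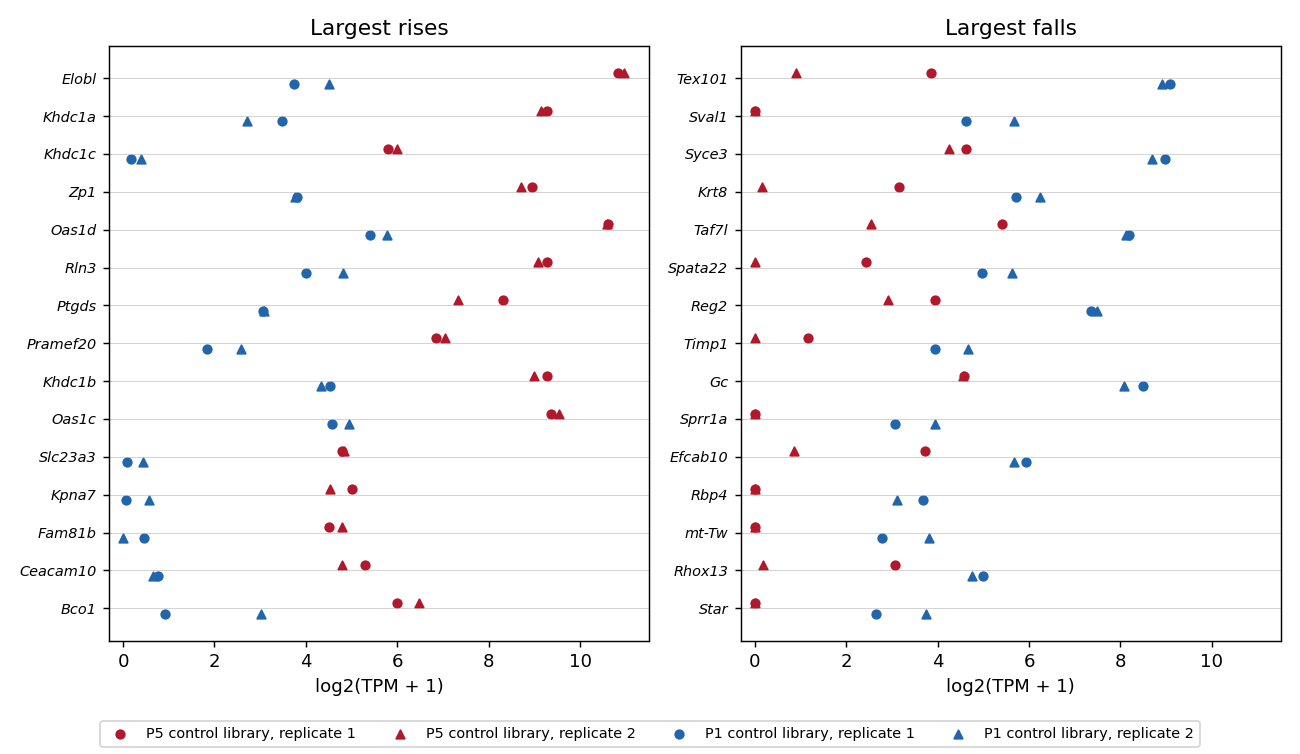
TPM in each of the 4 libraries, as log2(TPM + 1) on the horizontal axis, for the 15 genes with the largest rise (left) and the 15 with the largest fall (right) at P5, with P5 libraries in red and P1 libraries in blue and a different marker for each replicate. The P5 and P1 points of each gene do not overlap, by the rule that chose the genes. For Tex101, Krt8, Taf7l, Spata22, Efcab10 and Rhox13 the 2 P5 libraries lie apart, with replicate 1 the higher.

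The egg coat genes were higher as a group. Of 8 measured, 7 were called higher and 0 lower, with a median log2 fold change of 3.35. Zp1 was at 494 and 415 TPM at P5, against 12.9 and 12.6 TPM at P1. Zp2 was at 1092 and 1104 TPM at P5, against 138.5 and 186 TPM at P1. Zp3, which encodes another glycoprotein of the coat, was at 1283 and 1536 TPM at P5 and at 74.4 and 134 TPM at P1. The log2 fold changes of Zp1, Zp2 and Zp3 were 5.04 ± 0.29, 2.77 ± 0.28 and 3.80 ± 0.33 (limma adjusted p of 3.27e-06, 0.000193 and 7.91e-05). Transcripts of all 3 were thus already present at P1, and their P5 libraries stood well clear of the P1 ones. Oosp1, one of a cluster of oocyte secreted proteins on chromosome 19, was at 15.1 and 11.2 TPM at P5, and at P1 it was listed at 0 in replicate 1 and at 0.387 TPM in replicate 2. The neighbouring Oosp2 was at 104.5 and 134 TPM at P5 and at 11.54 and 9.05 TPM at P1, and Oosp3 was at 6.85 and 11.9 TPM at P5 and at 0.322 and 0.913 TPM at P1. Astl, which encodes ovastacin, the protease that cleaves ZP2 after fertilization, was at 125 and 65.1 TPM at P5 and at 5.801 and 11.8 TPM at P1. Zp1, Zp2, Zp3 and Oosp1 kept their calls with any library left out. Oosp2 and Oosp3 lost theirs without any 1 of the 4 libraries, and Astl without P5 replicate 1 or either P1 replicate (limma adjusted p up to 0.179, 0.255 and 0.166). Oosp2 also missed without the TPM filter and with a pseudocount of 0.1, and Oosp3 without the filter and with a pseudocount of 5 (limma adjusted p up to 0.0998 and 0.182).

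Some signals from the oocyte to its surrounding cells were called, where 3.63% of all 15301 genes were higher and 2.63% lower. Gdf9, a TGF-beta family ligand that granulosa cells need to proliferate, was at 496 and 487 TPM at P5, against 27.6 and 37.4 TPM at P1. The log2 fold change was 3.90 ± 0.41 (limma adjusted p = 0.000281). Its partner Bmp15 was low, at 7.84 and 9.90 TPM at P5 and at 1.26 and 2.62 TPM at P1, and was not called (limma adjusted p = 0.128). Pdgfa, a platelet-derived growth factor, was at 47.4 and 41.4 TPM at P5 and at 7.44 and 9.16 TPM at P1 (log2 fold change 2.29 ± 0.38, limma adjusted p = 0.00491, and 0.0652 without P1 replicate 1). Of the 9 secreted factors measured, 2 were higher and 0 lower, with a median log2 fold change of 0.77. On the receiving and contact side, Gja4, the connexin of the oocyte's gap junctions with granulosa cells, was at 404 and 364 TPM at P5 and at 103.2 and 105.3 TPM at P1. This gave a log2 fold change of 1.87 ± 0.24 (limma adjusted p = 0.000891). Cd9, a membrane protein needed for sperm fusion, was at 917 and 1019 TPM at P5 and at 805 and 732 TPM at P1 and was not called (limma adjusted p = 0.640). Over the 15 contact and fertilization surface genes 3 were higher and 0 lower, the others called being Cd81 and Astl, and the median log2 fold change was 0.83. Gja4 kept its call with any library left out, while Cd81 missed without any 1 of the 4 (limma adjusted p up to 0.340), and also without the TPM filter, with a pseudocount of 0.1 and when scaled without mitochondrial genes (up to 0.0800).

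Components of the subcortical maternal complex, a protein assembly under the egg's membrane that embryos need for their first divisions, were higher at P5 in 5 of 7 measured genes and lower in 0 (median log2 fold change 1.88). Padi6, a structural member of it, was at 2168 and 1889 TPM at P5, against 132 and 210.0 TPM at P1 (log2 fold change 3.6 ± 0.32, limma adjusted p = 7.93e-05). Ooep was at 1270 and 1626 TPM at P5 and at 310.6 and 310.7 TPM at P1 (log2 fold change 2.21 ± 0.14, limma adjusted p = 7.05e-06). Khdc3, known also as FILIA, was at 219 and 139 TPM at P5 and at 25.2 and 34.9 TPM at P1. The remaining calls were Nlrp5, also known as MATER, at 1159 and 834 TPM at P5 and at 263 and 268 TPM at P1, and Tle6. Nlrp4f, at 511 and 737 TPM at P5 and at 294 and 374 TPM at P1, missed the test (limma adjusted p = 0.0663). Padi6, Ooep and Khdc3 passed with any library left out, whereas Nlrp5 missed without P5 replicate 1 or either P1 replicate and Tle6 without either P5 replicate or P1 replicate 1 (limma adjusted p up to 0.0938 and 0.137). Among 6 other oocyte NLRP genes 2 were higher and 0 lower (median log2 fold change 2.19). Nlrp14 was at 1062 and 1188 TPM at P5 and at 44.99 and 102.3 TPM at P1, with a log2 fold change of 4.03 ± 0.33 (limma adjusted p = 5.18e-05). The other was Nlrp4g, which missed without any 1 of the 4 libraries (limma adjusted p up to 0.106).

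Some members of other gene families known from oocytes were higher at P5, where 3.63% of all 15301 genes were higher. In the Oas1 family, a set of oligoadenylate synthetase paralogs of which mice carry copies used in the ovary, 4 of 6 were higher and 0 lower (median log2 fold change 3.16). Oas1d was at 1561 and 1530.4 TPM at P5, against 41.0 and 53.9 TPM at P1 (log2 fold change 5.01 ± 0.36, limma adjusted p = 1.82e-05). Oas1c was at 657 and 741 TPM at P5 and at 22.8 and 29.9 TPM at P1, and Oas1h was at 1433 and 1422 TPM at P5 and at 128 and 140.5 TPM at P1. All of these kept their calls with any library left out, and the remaining call, Oas1e, missed without P1 replicate 1 (limma adjusted p = 0.0522). Of 12 members of the Fbxw F-box cluster, 3 were higher and 0 lower, with a median log2 fold change of 0.90. Fbxw24 was at 249.7 and 366 TPM at P5 and at 22.5 and 34.2 TPM at P1, and Fbxw15 was at 193 and 250.1 TPM at P5 and at 27.5 and 39.6 TPM at P1. Of 6 genes of the Tcl1 family, which are AKT cofactors in lymphoid cells, 3 were higher and 0 lower (median log2 fold change 1.47), with Tcl1 at 1442 and 1373 TPM at P5 and at 467 and 533 TPM at P1. Of 5 Oog and Omt2 genes 4 were higher and 0 lower (median log2 fold change 1.97), and Oog3 was at 20.04 and 7.61 TPM at P5 and listed at 0 in both P1 libraries. Fbxw24, Fbxw15, Fbxw13, Tcl1 and Oog3 passed with any library left out. Oog2, Oog4, Omt2b, Tcl1b1 and Tcl1b4 missed without any 1 of the 4 libraries (limma adjusted p up to 0.212, 0.137, 0.152, 0.250 and 0.222). Oog2 and Tcl1b4 also missed with a pseudocount of 5 and with quantile or median-of-ratios scaling, Tcl1b1 with a pseudocount of 0.1, Oog2 with the 4 control libraries alone, and Omt2b, Tcl1b1 and Tcl1b4 without the TPM filter. These limma adjusted p reached 0.277 for Oog2, 0.0546 for Omt2b, 0.0714 for Tcl1b1 and 0.196 for Tcl1b4. None of the 6 Obox genes, a homeobox family of later oocytes and zygotes, reached the TPM filter. Many genes of these clusters have close copies, between which the counting could split reads.

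Among 11 maternal chromatin and mRNA factors, 6 were higher and 1 lower (median log2 fold change 1.24). Dppa3 was at 70487 and 70694 TPM at P5, against 42222 and 37273 TPM at P1, a log2 fold change of 0.83 ± 0.08 (limma adjusted p = 0.000133). H1f8, the oocyte linker histone, was at 927 and 740.1 TPM at P5 and at 127 and 158 TPM at P1 (log2 fold change 2.54 ± 0.24, limma adjusted p = 0.000131). Npm2, a histone chaperone of the egg nucleus, was at 356 and 306 TPM at P5 and at 41.9 and 39.1 TPM at P1. Btg4, an adaptor that recruits the CCR4-NOT deadenylase to maternal transcripts, was at 314 and 333 TPM at P5 and at 58.0 and 53.1 TPM at P1. Cnot7, a catalytic subunit of that deadenylase, was at 177 and 198 TPM at P5 and at 38.5 and 39.2 TPM at P1 (log2 fold change 2.24 ± 0.34, limma adjusted p = 0.00298). Zar1, which stores maternal mRNA, was at 30.5 and 24.9 TPM at P5 and at 2.07 and 0.868 TPM at P1. The translational regulator Dazl went the other way, at 619 and 451 TPM at P5 and at 1090.1 and 1189 TPM at P1 (log2 fold change -1.11, limma adjusted p = 0.0182). Over 27 genes of mRNA storage and deadenylation 5 were higher and 1 lower, beside 3.63% and 2.63% of all 15301 genes. The median of the list was -0.17. The 1 that was lower was Pan3, a deadenylase cofactor. H1f8, Btg4, Cnot7, Zar1 and Dppa3 passed with any library left out. Npm2, Pan3 and the BCL2 family gene Bcl2l10 missed without any 1 of the 4 libraries, and Dazl missed without P5 replicate 2 or either P1 replicate (limma adjusted p up to 0.102, 0.181, 0.251 and 0.145). Bcl2l10 also missed without the TPM filter (limma adjusted p = 0.0726). With quantile normalization Dppa3, the top gene of every library, has the same value in all of them and no call.

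**Figure D3:**
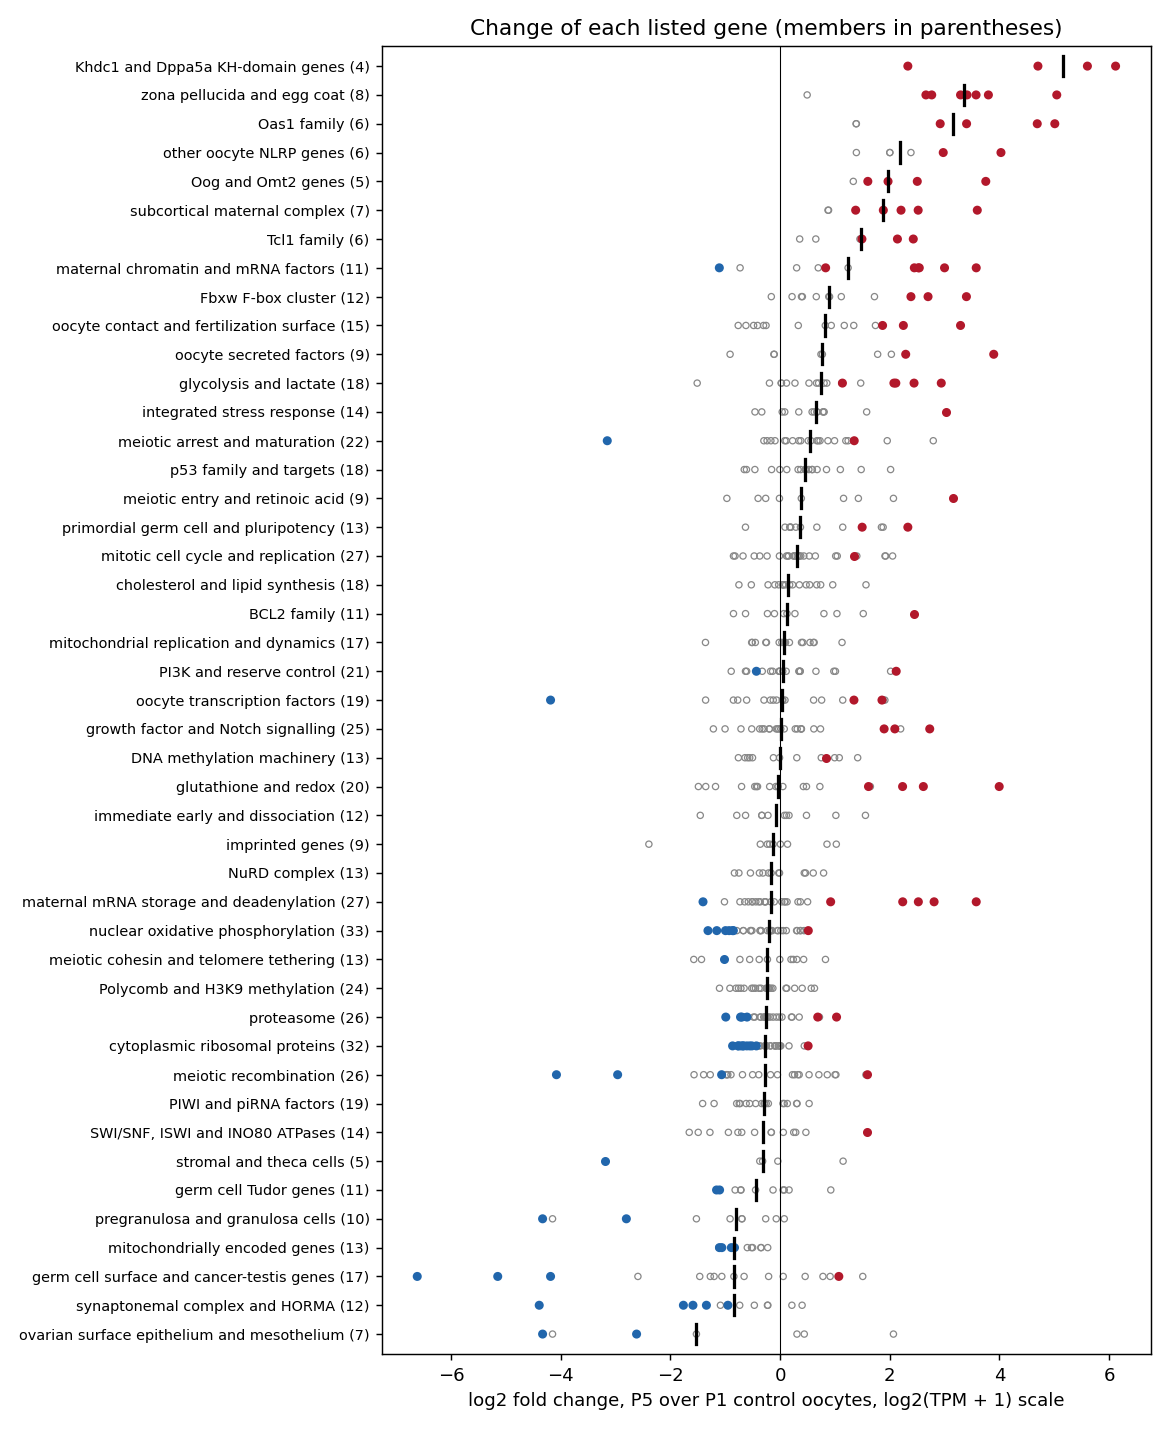
Log2 fold change of P5 over P1 on the log2(TPM + 1) scale for each measured gene of every list with at least 4 members, 1 row per list with the number of members in parentheses and lists ordered by their median (black bar). Filled points passed limma's test, in red when higher at P5 and in blue when lower, and open points did not. KH-domain genes, with a median of 5.15, and egg coat genes, with 3.35, lie farthest to the right, while surface epithelium and mesothelium markers, with -1.52, lie farthest to the left, followed by synaptonemal complex genes and germ cell surface genes, with -0.84 each, mitochondrially encoded genes, with -0.83, and granulosa cell markers, with -0.80.

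Oocyte transcription factors were called in both directions. Of 19 measured, 2 were higher and 1 lower, beside 3.63% and 2.63% of all 15301 genes. Their median log2 fold change was 0.04. In limma 9 of the 19 had an unadjusted p under 0.05, 5 higher and 4 lower, beside 3141 of the 15301. Nobox, a homeobox factor of primordial follicle oocytes, was at 345 and 341 TPM at P5, against 129.7 and 139 TPM at P1 (log2 fold change 1.35 ± 0.23, limma adjusted p = 0.00646). Tbpl2, the oocyte paralog of TBP that takes its place in growing oocytes, was at 271 and 278 TPM at P5 and at 65.0 and 86.7 TPM at P1 (log2 fold change 1.86 ± 0.33, limma adjusted p = 0.00703). Taf7l, a TFIID subunit paralog of germ cells, was at 41.7 and 4.79 TPM at P5 and at 291 and 278 TPM at P1 (log2 fold change -4.18 ± 0.76, limma adjusted p = 0.00890). Figla, above, and Sohlh1, at 1050.5 and 959 TPM at P5 and at 912 and 1311 TPM at P1, were not called. Nobox missed without P5 replicate 1 or P1 replicate 1, Tbpl2 without either P5 replicate or P1 replicate 1, and Taf7l without either P1 replicate (limma adjusted p up to 0.0763, 0.0928 and 0.0840).

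Signalling genes that hold or release the reserve held some calls, where 6.25% of all 15301 genes were called. Of 21 PI3K pathway genes 1 was higher and 1 lower (median log2 fold change 0.05), and the lower one was the ribosomal gene Rps6. Cdkn1b, the cell cycle inhibitor p27 that restrains follicle activation, was at 17.2 and 20.9 TPM at P5, against 4.11 and 3.14 TPM at P1 (log2 fold change 2.12 ± 0.36, limma adjusted p = 0.00560). Foxo3, the factor that keeps primordial follicles dormant, was at 57.2 and 63.2 TPM at P5 and at 95.0 and 89.5 TPM at P1 without a call (limma adjusted p = 0.268). The receptor Kit was at 60.3 and 67.7 TPM at P5 and at 82.8 and 119 TPM at P1 without one (limma adjusted p = 0.446). Of 25 growth factor, Notch and steroid receptor genes 3 were higher and 0 lower (median 0.01). Esr1, an estrogen receptor, was at 79.3 and 153 TPM at P5 and at 17.7 and 14.1 TPM at P1 (log2 fold change 2.73 ± 0.36, limma adjusted p = 0.00128). Bmpr1b, a BMP receptor, and Dll3, a Notch ligand, were the others. Esr1 passed with any library left out, Cdkn1b missed without P5 replicate 2 or P1 replicate 2, and Bmpr1b, Dll3 and Rps6 missed without any 1 of the 4 (limma adjusted p up to 0.0615, 0.132, 0.329 and 0.244). Dll3 also missed with a pseudocount of 0.1 and with the 8 P1 and P5 libraries alone, and Rps6 without the TPM filter and with quantile or median-of-ratios scaling (limma adjusted p up to 0.189 and 0.174).

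Genes of meiotic chromosome pairing were lower at P5 in part, where 2.63% of all 15301 genes were lower. Of 12 synaptonemal complex and HORMA genes, 5 were lower and 0 higher, with a median log2 fold change of -0.84. Syce3, of the central element that joins paired chromosomes, was at 23.8 and 18.1 TPM at P5, against 503 and 411 TPM at P1 (log2 fold change -4.39 ± 0.61, limma adjusted p = 0.00180). Sycp1, the transverse filament, was at 569 and 366 TPM at P5 and at 1381 and 1367 TPM at P1 (log2 fold change -1.59 ± 0.25, limma adjusted p = 0.00392). Syce2, another central element gene, was at 1077 and 919 TPM at P5 and at 2026 and 1824 TPM at P1 (log2 fold change -0.95 ± 0.11, limma adjusted p = 0.000536). Sycp2, of the lateral axis, was at 24.0 and 18.1 TPM at P5 and at 62.9 and 84.6 TPM at P1, and Hormad1, which marks unsynapsed axes, was at 234 and 149 TPM at P5 and at 426 and 527 TPM at P1. The axis gene Sycp3 stayed abundant, at 4891 and 4635 TPM at P5 and at 5614 and 5549 TPM at P1, and was not called (limma adjusted p = 0.461). Syce3, Sycp1 and Syce2 passed with any library left out. Sycp2 missed without P5 replicate 2 or either P1 replicate and Hormad1 without any 1 of the 4 (limma adjusted p up to 0.113 and 0.263). Hormad1 also missed without the TPM filter (limma adjusted p = 0.0710).

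In meiotic recombination 3 of 26 genes were lower and 1 higher, with a median log2 fold change of -0.28. Of all 15301 genes 2.63% were lower and 3.63% higher. Spo11, the enzyme that makes the breaks of meiotic recombination, was listed at 0 in both P5 libraries and was at 5.88 and 7.80 TPM at P1 (limma adjusted p = 0.0152). Spata22, which with MEIOB binds single-stranded DNA, was at 4.43 TPM in P5 replicate 1 and listed at 0 in P5 replicate 2, against 30.3 and 48.3 TPM at P1. Psmc3ip, known as HOP2, was at 137 and 123 TPM at P5 and at 293 and 253 TPM at P1, and its partner Mnd1 was at 857 and 746 TPM at P5 and at 817 and 835 TPM at P1 without a call (limma adjusted p = 1.00). The gene that was higher was the helicase gene Helb, at 3.88 and 3.81 TPM at P5 and at 0.688 and 0.525 TPM at P1. Spo11 and Psmc3ip missed without any 1 of the 4 libraries, Spata22 without P5 replicate 2 or either P1 replicate, and Helb without either P1 replicate, while without either P5 one it fell under the filter (limma adjusted p up to 0.108, 0.148, 0.216 and 0.170). Spata22 also missed without the TPM filter and with a pseudocount of 0.1, and Helb with that pseudocount and with quantile or median-of-ratios scaling (limma adjusted p up to 0.101 and 0.334). Of 13 cohesin and telomere tethering genes 1 was lower, Wapl, a cohesin release factor, at 118 and 125 TPM at P5 and at 252 and 243 TPM at P1 (log2 fold change -1.02 ± 0.13, limma adjusted p = 0.00119, kept with any library left out).

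Other germ cell genes were lower in part, where 2.63% of all 15301 genes were lower and 3.63% higher. Tex101, a glycoprotein of germ cell surfaces (ENSMUSG00000062773, chr7:24668007-24676675), was at 13.5 and 0.870 TPM at P5, against 538 and 483 TPM at P1, a log2 fold change of -6.61 ± 0.78 (limma adjusted p = 0.000647) that was kept with any library left out. Sval1, a seminal vesicle antigen-like gene, was listed at 0 in both P5 libraries and was at 23.7 and 49.7 TPM at P1. The X-linked homeobox gene Rhox13 was at 7.45 and 0.127 TPM at P5 and at 31.0 and 25.9 TPM at P1. Over 17 germ cell surface and cancer-testis genes 3 were lower and 1 higher, with a median log2 fold change of -0.84, the higher one being Xlr3a. Of 11 Tudor domain genes 2 were lower and 0 higher (median -0.45), Rnf17 at 94.8 and 108 TPM at P5 and at 228 and 226 TPM at P1, and Stk31 at 131 and 147 TPM at P5 and at 287 and 313 TPM at P1. Of 19 PIWI and piRNA factors, which silence transposons, 0 passed in either direction in limma and 6 had an unadjusted p under 0.05 (median -0.29), and Gtsf1, the most abundant, was at 4325 and 4946 TPM at P5 and at 3778 and 3720.1 TPM at P1. Sval1, Xlr3a and Rnf17 missed without any 1 of the 4 libraries, Stk31 without P5 replicate 1 or either P1 replicate, and Rhox13 without P5 replicate 2 or either P1 replicate (limma adjusted p up to 0.155, 0.234, 0.115, 0.0980 and 0.253). Sval1 also missed without the TPM filter, and Rhox13 so too, with a pseudocount of 0.1 and with the 4 control or the 8 P1 and P5 libraries alone (limma adjusted p up to 0.0520 and 0.0808).

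The remaining large falls were genes better known outside the germ line. Gc, the vitamin D binding protein, was at 23.0 and 22.6 TPM at P5, against 358 and 268 TPM at P1 (log2 fold change -3.71 ± 0.40, limma adjusted p = 0.000356, kept with any library left out). Reg2, a secreted lectin of the pancreas, was at 14.4 and 6.52 TPM at P5 and at 163 and 179 TPM at P1. Krt8, given above with the keratin markers, had a log2 fold change of -4.33 (limma adjusted p = 0.00680). The retinol carrier gene Rbp4, the steroidogenic cholesterol transporter gene Star and the cornified envelope gene Sprr1a were listed at 0 in both P5 libraries, against 11.8 and 7.65, 5.25 and 12.3, and 7.40 and 14.3 TPM at P1. The list was completed by Timp1, a metalloproteinase inhibitor, Efcab10, with calcium-binding EF-hands, and the mitochondrial tRNA gene mt-Tw, whose P1 values rested on 3 and 7 reads. Krt8 missed without either P1 replicate, Rbp4 without P1 replicate 1, Star without either P5 replicate or P1 replicate 2, Sprr1a without any 1 of the 4, mt-Tw without P5 replicate 1 or P1 replicate 2, and Reg2, Timp1 and Efcab10 without P5 replicate 2 or either P1 replicate. Their limma adjusted p reached 0.0705, 0.0542, 0.121, 0.243, 0.0756, 0.0951, 0.0951 and 0.250. Sprr1a also missed without the TPM filter, with median-of-ratios scaling and with the 8 P1 and P5 libraries alone, and Efcab10 without the filter, with a pseudocount of 0.1 and with the 4 control libraries alone (limma adjusted p up to 0.0935 and 0.0722). The granulosa marker sum was also lower at P5, but at P1 most of it was keratin, and Krt8 is itself among these falls. That sum is therefore not separate from them, and the part of such cells was not tested.

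Transcripts of respiration were lower at P5 in part, where 2.63% of all 15301 genes were lower and 3.63% higher. All 13 mitochondrially encoded protein genes had a log2 fold change under 0, with a median of -0.83, and 4 were called lower. They took 1.16% and 1.45% of all TPM at P5, against 1.85% and 2.06% at P1. The complex I subunit mt-Nd1 was at 2507 and 2304 TPM at P5 and at 5029 and 5307 TPM at P1 (log2 fold change -1.10 ± 0.14, limma adjusted p = 0.00100), and mt-Nd2 was at 672 and 694 TPM at P5 and at 1406 and 1445 TPM at P1. The most abundant, mt-Cytb, was at 5175 and 7692 TPM at P5 and at 6816 and 7967 TPM at P1 and was not called (limma adjusted p = 0.588). Of 33 nuclear genes of oxidative phosphorylation 6 were lower and 1 higher (median -0.19). Uqcrb, of complex III, was at 951 and 911 TPM at P5 and at 2152 and 1992 TPM at P1 (log2 fold change -1.15 ± 0.10, limma adjusted p = 6.02e-05). Cox7c, of complex IV, was at 1267 and 1073 TPM at P5 and at 3173 and 2648 TPM at P1, and Ndufa1, of complex I, was at 2719 and 3011 TPM at P5 and at 6300 and 5155 TPM at P1. The gene that was higher was Atp5o, of the ATP synthase. The genes mt-Nd1, mt-Nd2, Uqcrb, Cox7c and Ndufa1 passed with any library left out. Ndufb3, Ndufv2, Uqcrc2, mt-Atp6 and Atp5o missed without any 1 of the 4 and mt-Co1 without P5 replicate 1 or either P1 replicate (limma adjusted p up to 0.189, 0.221, 0.120, 0.173, 0.0937 and 0.237). With median-of-ratios scaling mt-Atp6 missed, and mt-Co1 did without the TPM filter and with quantile normalization (limma adjusted p up to 0.0557 and 0.0711).

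Some glycolysis and redox genes were higher at P5, where 3.63% of all 15301 genes were higher. Of 18 glycolysis genes 5 were higher and 0 lower, with a median log2 fold change of 0.75. Ldhb, a lactate dehydrogenase subunit, was at 8192 and 7767 TPM at P5, against 3387 and 3880 TPM at P1 (log2 fold change 1.14 ± 0.23, limma adjusted p = 0.0172). Aldoa, an aldolase, was at 157 and 172 TPM at P5 and at 36.1 and 40.4 TPM at P1. Pkm, which makes pyruvate, was at 139 and 125 TPM at P5 and at 112 and 149 TPM at P1 without a call (limma adjusted p = 1.00). Ldhb, Aldoa and Gapdh missed without any 1 of the 4 libraries, and Hk1 and Pfkl without P5 replicate 1 or either P1 replicate (limma adjusted p up to 0.159, 0.157, 0.274, 0.0805 and 0.279). Pfkl also missed without the TPM filter, with a pseudocount of 5 and with median-of-ratios scaling (limma adjusted p up to 0.0730). Of 20 redox genes 4 were higher and 0 lower, with a median of -0.04. Gsta4, a glutathione transferase that clears lipid peroxidation products, was at 1812 and 2581 TPM at P5 and at 125 and 145 TPM at P1 (log2 fold change 4.0 ± 0.20, limma adjusted p = 9.91e-07). Prdx2, a peroxiredoxin, was at 223 and 233 TPM at P5 and at 44.4 and 51.2 TPM at P1 (log2 fold change 2.23 ± 0.26, limma adjusted p = 0.000616), and both kept their calls with any library left out. Gpx1 missed without any 1 of the 4 and Gstp1 without P5 replicate 1 or P1 replicate 1 (limma adjusted p up to 0.169 and 0.0689).

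Protein synthesis and turnover genes were mostly lower where called, by small amounts. Of all 15301 genes 2.63% were lower and 3.63% higher. Of 32 cytoplasmic ribosomal protein genes 10 were lower, with a median log2 fold change of -0.27. Rps23 was at 1513 and 1425 TPM at P5, against 2119 and 2073 TPM at P1 (log2 fold change -0.51, limma adjusted p = 0.00286). Rps23 passed with any library left out, but it lost its call under quantile normalization (limma adjusted p = 0.0757). Of 26 proteasome genes 4 were lower and 2 higher (median -0.25), and each of these calls missed without any 1 of the 4 libraries (limma adjusted p up to 0.129 to 0.253).

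Chromatin, survival and cell cycle genes held few calls, where 6.25% of all 15301 genes were called. The 13 NuRD genes and the 24 Polycomb and H3K9 methylation genes had 0 calls in limma, with 1 and 2 genes at an unadjusted p under 0.05 and medians of -0.16 and -0.25. Smarca2, a SWI/SNF ATPase, was the only call among 14 remodelling ATPases, at 18.05 and 19.11 TPM at P5, against 5.09 and 5.98 TPM at P1 (limma adjusted p = 0.00705). It missed without P5 replicate 2 or P1 replicate 1 (limma adjusted p up to 0.0841). The 18 p53 pathway genes had 0 calls in limma, 2 at an unadjusted p under 0.05 and a median of 0.46, and Cdkn1a, the p21 gene, was at 78.3 and 71.7 TPM at P5 and at 14.9 and 21.2 TPM at P1 without passing (limma adjusted p = 0.0938). Nupr1, a stress-induced chromatin protein, was the single call of 14 integrated stress response genes, at 111 and 81.4 TPM at P5 and at 11.6 and 9.92 TPM at P1 (log2 fold change 3.03 ± 0.45, limma adjusted p = 0.00275, kept with any library left out). The 12 immediate early genes, which mark dissociation stress, had 0 calls in limma, 1 at an unadjusted p under 0.05 and a median of -0.07. Of 27 mitotic genes 1 was called, Ccnb1, at 124 and 113 TPM at P5 and at 39.4 and 53.2 TPM at P1, which missed without P5 replicate 1 or P1 replicate 1 (limma adjusted p up to 0.102). Crabp1, a retinoic acid binding protein, was at 1467 and 483 TPM at P5 and at 73.9 and 120.1 TPM at P1 (log2 fold change 3.15 ± 0.57, limma adjusted p = 0.00890), and missed without P5 replicate 1 or P1 replicate 1 (limma adjusted p up to 0.108). Mitochondrial dynamics (17 genes), cholesterol synthesis (18) and imprinted genes (9) had 0 calls each in limma, with 2, 2 and 1 at an unadjusted p under 0.05.

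A gene that passed the TPM filter through 1 age alone had to differ. Over genes at 1 TPM or more in all 4 libraries, 5 of 6 egg coat genes, 5 of 7 subcortical complex genes, 4 of 4 Oas1 genes and 3 of 3 KH-domain genes were higher. In the same way 5 of 12 synaptonemal complex genes and 1 of 21 recombination genes were lower. Of all 11336 such genes 3.16% were higher and 2.06% lower. Other lists lost calls. Germ cell surface and cancer-testis genes kept 1 higher and 1 lower of 13, and glycolysis genes 3 higher of 15. The mRNA storage and deadenylation genes kept 3 higher and 1 lower of 24. The Oog and Omt2 list was left with 1 of 2.

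Length and gene type were set beside the calls, TPM itself being scaled by length. The median spliced length was 2184 bases for the genes that were higher and 1403 for those that were lower, against 3138 over all, and 73.0%, 58.0% and 72.1% of these 3 sets were protein coding. Neighbouring and adjacent here mean next along the chromosome among the genes described that had a position, at any distance, with genes under the TPM filter passed over. Of the genes called higher, 13.1% had a neighbouring gene that was also called higher, against 7.01% of all genes so placed. The shares for the genes called lower were 8.55% and 5.04%. The longest runs of adjacent calls in 1 direction were 5 PRAME family genes on chromosome 4, from Gm13084 to Pramef20, Oosp2, Oosp1 and Oosp3 on chromosome 19, and mt-Rnr2, mt-Tl1 and mt-Nd1, lower, in the mitochondrial genome. RefSeq promoters were matched for 354 of the genes that were higher, 200 that were lower and 9796 of all. The median promoter of the genes that were higher held 10.5 CG pairs and 55.8% G and C, of those that were lower 22 and 59.7%, and of all 20 and 60.3%. A promoter with at most 4 CG pairs, as in Elobl and Sval1 above, was found for 24.9% of the genes that were higher, 13.0% of those that were lower and 10.1% of all. The TATA box TATAAA, searched on both strands with TTTATA as its complement, was in 10.2%, 13.0% and 7.54% of these 3 sets. Counted on the sense strand alone and lying 45 to 16 bases before the start, as in Rln3, it was in 3.67%, 1.5% and 1.49%. The motif TAATTG, bound by NOBOX, was in 7.06%, 5.00% and 5.06%, the E-box CACGTG in 6.5%, 12% and 10.5%, and the E2F motif GCGGGAA in 5.37%, 11% and 8.75%, on either strand. These shares are descriptions of letters in a window.

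Levels in P10 controls, of another genotype, were set beside these without a test. For Zp1 the TPM were 12.9 and 12.6 at P1, 494 and 415 at P5, 47.0 and 60.4 in P10 non-growing oocytes (NGO) and 104.6 and 91.6 in P10 growing oocytes (GO). The P5 libraries were thus the highest of the 4 groups. Rln3 was also highest at P5, at 15.1 and 27.3 at P1, 617 and 539 at P5, 46.8 and 30.2 in P10 NGO and 17.9 and 36.1 in P10 GO. Oas1d was at 41.0 and 53.9 at P1, 1561 and 1530.4 at P5, 118 and 154.5 in P10 NGO and 124 and 135 in P10 GO. Elobl, in contrast, was at 12.4 and 21.8 at P1, 1818 and 1977 at P5, 3852 and 3563 in P10 NGO and 3300.1 and 3141 in P10 GO. The F-box gene Fbxw24 was at 22.5 and 34.2 at P1, 249.7 and 366 at P5, 806 and 1041 in P10 NGO and 29307 and 25902 in P10 GO, so that its P5 level was small beside that of growing oocytes. Among the genes lower at P5, Tex101 was listed at 0 in both P10 NGO libraries and was at most 0.0794 TPM in GO. Taf7l was at 291 and 278 at P1, 41.7 and 4.79 at P5, 85.1 and 71.8 in P10 NGO and 0.235 and 0.179 in P10 GO. Syce2 was at 2026 and 1824 at P1, 1077 and 919 at P5, 2195 and 2076 in P10 NGO and 1389 and 1439 in P10 GO, above P5 in all 4 P10 libraries.

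**Figure D4:**
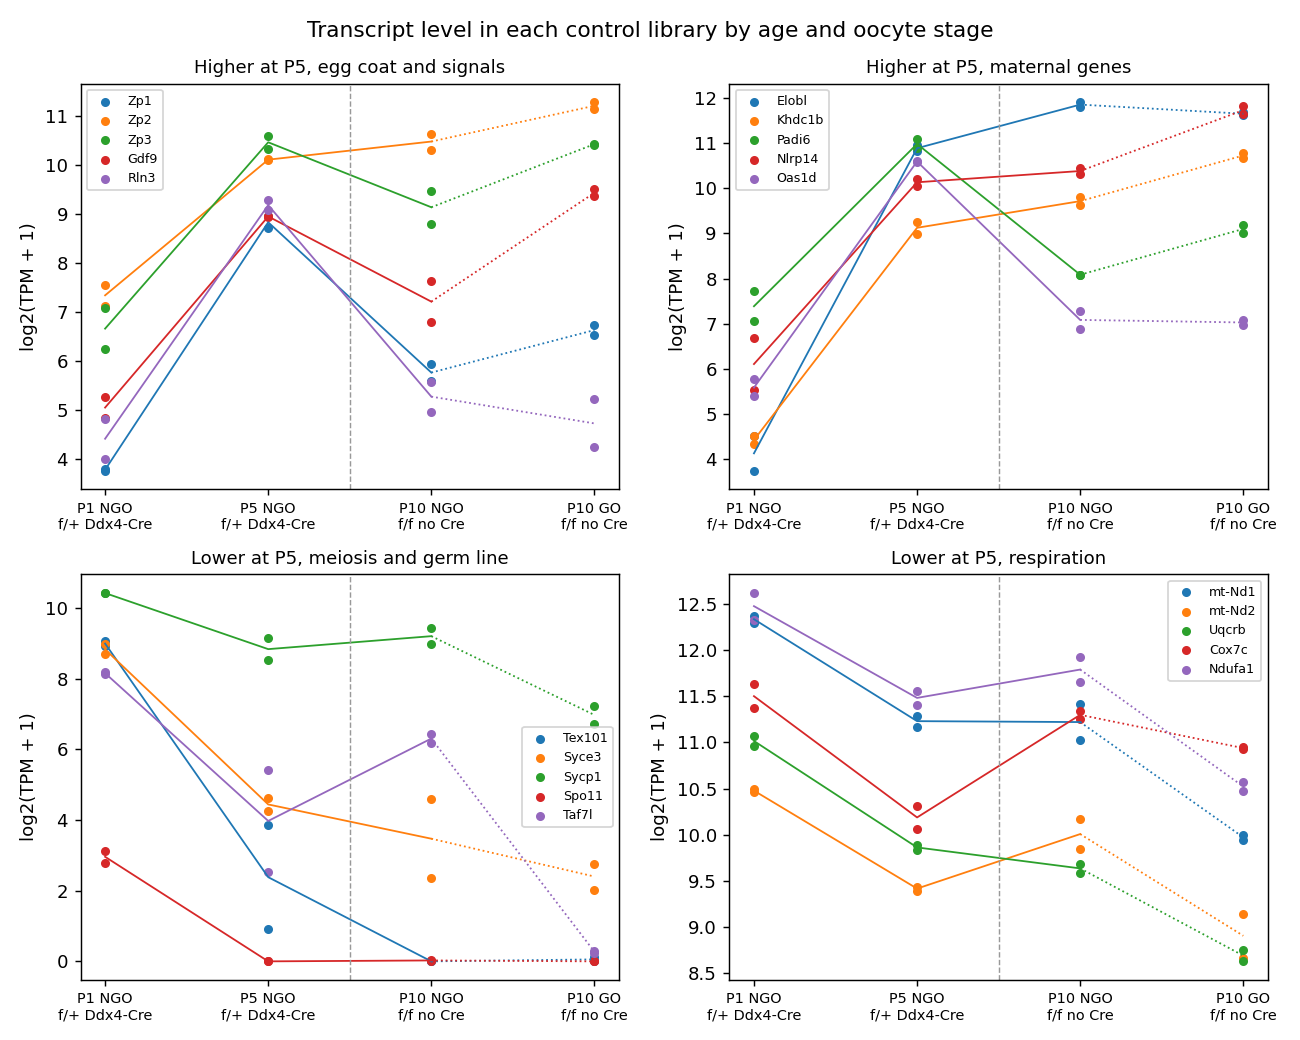
Each point is 1 control library, as log2(TPM + 1) on the vertical axis, for P1 and P5 non-growing oocytes (Chd4 f/+ with Ddx4-Cre) and P10 non-growing and growing oocytes (Chd4 f/f without Cre), with lines through the mean of 2 libraries and a dashed line where the genotype changes. Zp1, Rln3 and Oas1d are highest at P5, Elobl stays high at P10, and Tex101 and Spo11 are at or near 0 at P10.

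Whether the age change differed in knockouts was tested by the contrast of P5 over P1 in DcKO minus the same in Dctrl. It passed for 64 of 20470 genes (0.313%) and for 37 of the 15301 (0.242%). Among the 957 genes called in controls 29 passed (3.03%). For 17 of these, lower at P5 in controls, the difference was above 0. For 12, higher at P5 in controls, it was below 0 in 7 and above 0 in 5. The controls of the age change enter this difference too, so a gene with an extreme control value can appear in both.

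The genes given here had the smallest p of the difference among those also called in controls. Syce2 was at 1679 and 1887 TPM in P5 DcKO, 1077 and 919 TPM in P5 Dctrl, 1749 and 1669 TPM in P1 DcKO and 2026 and 1824 TPM in P1 Dctrl. The difference was 1.01 ± 0.15 on the log2 scale (limma adjusted p = 0.0190), and the DcKO libraries of the 2 ages overlapped. Higd1a, a mitochondrial hypoxia-response gene, was at 348 and 395 TPM in P5 DcKO, 210.1 and 204.5 TPM in P5 Dctrl, 359 and 378 TPM in P1 DcKO and 491 and 441 TPM in P1 Dctrl (difference 1.17 ± 0.19, limma adjusted p = 0.0266). Noto, a homeobox gene named for the notochord, was at 174 and 160.5 TPM in P5 DcKO, 267 and 341 TPM in P5 Dctrl, 2.02 and 5.01 TPM in P1 DcKO and 88.5 and 69.7 TPM in P1 Dctrl. Its level in controls was higher at P5, and it was far lower in P1 DcKO than in the other 3 groups (difference 3.37 ± 0.41, limma adjusted p = 0.00654). Tsga10ip showed that order too, with 144 and 77.5 TPM in P5 DcKO, 252 and 292 TPM in P5 Dctrl, 1.49 and 2.09 TPM in P1 DcKO and 31.9 and 39.0 TPM in P1 Dctrl (difference 2.36 ± 0.38, limma adjusted p = 0.0246). Gsta4 was at 1115 and 986 TPM in P5 DcKO, 1812 and 2581 TPM in P5 Dctrl, 333 and 238 TPM in P1 DcKO and 125 and 145 TPM in P1 Dctrl, so both genotypes had more at P5 (difference -2.10 ± 0.29, limma adjusted p = 0.0111). The pseudogene Ndufa12-ps, whose reads could be shared with Ndufa12, was at 330.4 and 195 TPM in P5 DcKO, 78.1 and 101.3 TPM in P5 Dctrl, 186 and 160.1 TPM in P1 DcKO and 486 and 414 TPM in P1 Dctrl (difference 2.88 ± 0.43, limma adjusted p = 0.0172). Hs3st6 and Ubtd1 were listed at 0 in both P5 Dctrl libraries and stayed under 6 TPM in all 8, with differences of 3.6 and 3.38, on 15 and 18 reads for Hs3st6 and 14 and 35 for Ubtd1 at P1 in controls. With a pseudocount of 0.1 these differences were 8.805 and 8.73.

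Hs3st6 and Noto passed with any 1 of the 8 libraries left out. The limma adjusted p was 0.0642 for Gsta4 without P1 Dctrl replicate 1 and 0.0533 for Ubtd1 without P5 Dctrl replicate 2, which also missed with quantile normalization (0.0747). It reached 0.0954 for Ndufa12-ps, which missed without either P1 Dctrl library or P1 DcKO replicate 2, 0.102 for Syce2, 0.0887 for Tsga10ip and 0.146 for Higd1a. Syce2 missed without P5 Dctrl replicate 2, P1 Dctrl replicate 1, P5 DcKO replicate 2 or either P1 DcKO library, Tsga10ip without any Dctrl library or P1 DcKO replicate 1, and Higd1a without any library but P5 DcKO replicate 1. With the 8 P1 and P5 libraries fitted alone none of these 8 genes passed (limma adjusted p of 0.0678 to 0.160). Most age changes of the genes named above were not called as different in DcKO, as for Zp1 (difference -1.55, limma adjusted p = 0.173) and Elobl (difference -0.49, limma adjusted p = 0.987), which does not show that they were alike.

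**Figure D5:**
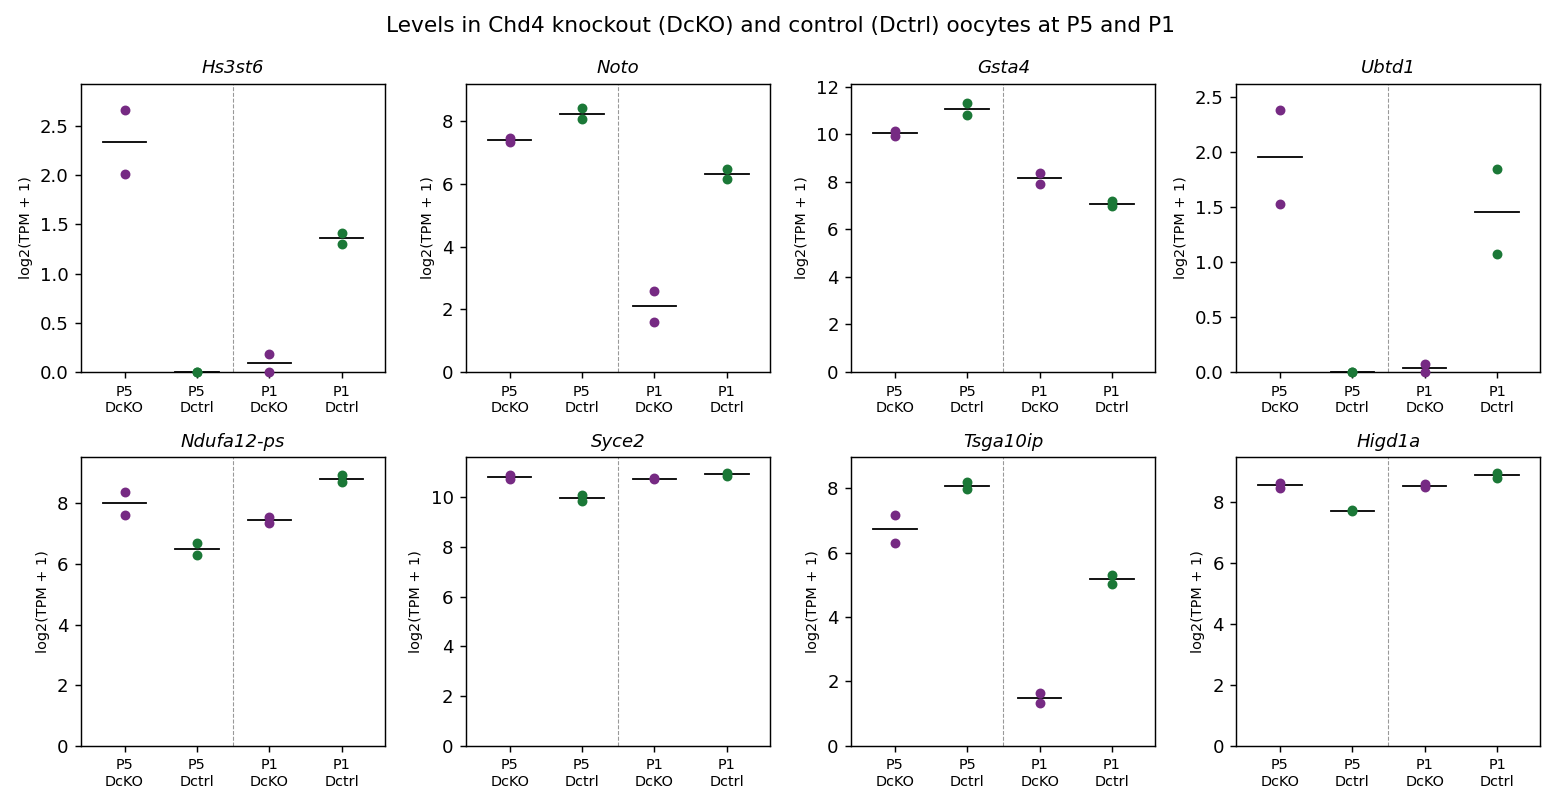
Log2(TPM + 1) of each library for the 8 genes with the smallest p of the difference among those also called in controls. P5 DcKO, P5 Dctrl, P1 DcKO and P1 Dctrl run from left to right, with a bar at the mean of 2 libraries. Syce2 and Higd1a are lowest in P5 Dctrl, while Noto and Tsga10ip are lowest in P1 DcKO.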

How the data were processed

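The authors deposited TPM, a length-scaled relative abundance, per gene for each oocyte library. Per the submitters' processing notes, Trimmomatic 0.39, STAR 2.5.4b, SAMtools 1.9 and featureCounts 2.0.1 were used with GRCm38, and per the labels' protocols a low-input kit and paired reads. The annotation, lengths and strand setting are not given in the sources used here, so overlapping and antisense genes cannot be told apart. Values were analysed as log2(TPM + 1) with limma 3.58.1 (R 4.3.3; lmFit, contrasts.fit, eBayes with a trend), two-sided, Benjamini-Hochberg adjusted. The fit held all 16 oocyte libraries as 8 group means without a block, over the 20470 genes with at least 1 TPM in at least 2 libraries (8 residual and 3.842 prior degrees of freedom), after a check on simulated data. Fold changes of low genes are understated on this scale. Reads were recovered from TPM and GENCODE M21 exon lengths, and 98.73% to 99.03% of values under 20 reads came out within 0.05 of whole. Of 53722 symbols, 51724 were found in M21. Promoters are from RefSeq (GRCm38.p6). The 15 largest rises and 15 largest falls were named among called genes with a mean of at least 5 TPM in a group, no overlap and no predicted-model or short non-coding symbol, with up to 8 called genes per list and the 8 smallest p of the difference. The members and lists were chosen with earlier results of these data known. Alternatives were other filters, pseudocounts, scalings, library sets, a replicate block and each library left out. Plots were drawn with matplotlib 3.10.9 in Python 3.11.15, and tables with pandas 2.3.3. Some results are not reported here.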

Additional observations from a re-analysis of the deposited data

Results flagged for a closer look

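The age change differed between DcKO and Dctrl oocytes, by the test of the difference itself, for 64 of 20470 genes. Among the 957 genes called in controls 29 passed. The 8 of these with the smallest p are given here, predicted-model and short non-coding symbols left out. The control libraries enter both tests, so a gene with an extreme control value can appear in both. On the log2(TPM + 1) scale the P5 over P1 change in DcKO minus that in Dctrl was 3.6 for Hs3st6, 3.37 for Noto, 3.38 for Ubtd1, 2.88 for Ndufa12-ps, 2.36 for Tsga10ip, 1.17 for Higd1a and 1.01 for Syce2, all above 0. It was -2.1 for Gsta4, which had more transcript at P5 in both genotypes. None of the 8 passed with the 8 P1 and P5 libraries alone (limma adjusted p of 0.0678 to 0.160), and with any 1 library left out only Hs3st6 and Noto passed throughout.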

How the results depend on the processing

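The 962 calls came to 818 to 1121 under the other filters, pseudocounts, scalings and the replicate block (818 with the block, 803 of them shared), all within 1.5 times. They came to 2358 with the 4 control libraries alone (845 shared) and 2047 with the 8 P1 and P5 libraries alone (836 shared). Leaving out 1 library gave 249 to 486, and the percent of calls that were higher was 57.8, against 68.1 without P5 replicate 2. The 64 calls of the difference came to 16 with a filter of 5 TPM, 139 with a pseudocount of 0.1, 10 with the 8 P1 and P5 libraries alone and 37 with the replicate block, and to 16 to 90 with 1 library left out. None of the 137 named genes reversed its direction. With the replicate block 11 of 137 named genes lost the age call, and Tsga10ip and Higd1a lost the call of the difference (limma adjusted p of 0.0518 and 0.0546). Without 1 library 63 to 80 lost the age call. The labels state no pairing by replicate number, and the deviations of same-numbered P5 and P1 controls correlated at 0.0114. With 2 libraries per group that value cannot decide whether same-numbered libraries share a preparation. With 2 libraries per group, precision is limited, and 1 read is worth 0.111 TPM at P5 and 0.125 to 0.133 TPM at P1 for a transcript of 1000 bases, so levels near those are not told from 0.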
